A study of Mus musculus with 11 samples.

Results

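Cytokines, interferons and several growth factors signal through a short relay. A receptor without enzyme activity of its own carries a JAK kinase on its cytoplasmic tail, ligand binding brings JAKs together, and the activated kinases phosphorylate STAT proteins, which pair and move to the nucleus as transcription factors. In the heart the gp130 branch, which runs mainly through STAT3, is known for its part in cardiomyocyte survival and vessel growth, and the interferon branch pairs STAT2 with IRF9.

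The genes described here are 9 members of these families. They are the kinases Jak1, Jak2 and Tyk2 and the transcription factors Stat2, Stat3, Stat4, Stat5a, Stat5b and Stat6. The choice went by family name, with earlier results of these data known. The members were 9 of 55487 gene identifiers and 9 of the 24177 genes with at least 10 counts over all hearts, so every member was tested. RNA came from whole hearts of mouse embryos at E14.5, 5 Pde2A-/- (KO) and 6 Pde2A+/+ (WT), with 1 library per heart. Both genotypes came from matings of Pde2A+/- mice of the line B6;129P2-Pde2A<tm1Dgen>, whose allele disrupts the gene of the phosphodiesterase PDE2A in the whole animal and not in a chosen cell type. No heart received a treatment. Embryos of both sexes were used, and the sex, litter and processing day of single hearts are not given in the sources used here.

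Each heart had between 35865537 and 42835382 counts on the sense strand of genes, and levels are given as TMM-scaled CPM, the counts of a gene relative to the counts of its library. Pde2a had 0 to 2 counts in any heart of either genotype, 7 in all, so its level could not check the labels. The study lists Pde2a among the phosphodiesterases that the heart expresses, and the cause of the low counts in WT hearts was not tested. Cardiomyocyte markers summed to between 38282 and 45142 CPM in KO hearts and between 37457 and 49944 CPM in WT hearts, as the tissue label has it. WT replicate 7 stood apart. The 8 tested markers of T and NK cells summed to 89.1 CPM in it. Their sum was 2.17 to 2.80 CPM in the other WT hearts and 2.70 to 3.24 CPM in KO hearts. The T-cell receptor gene Cd3e was at 0 in every other heart. Results that rest on this heart are given with and without it.

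Of the 9 members, 5 were higher in KO hearts at an adjusted p under 0.05 and 0 were lower (quasi-likelihood test of edgeR, Benjamini-Hochberg adjustment across all genes tested). Over all genes, 8.93% were higher and 5.67% lower by the same rule. The 5 were Stat3, Stat2, Stat6, Stat5b and Jak2, in order of the size of their change. Stat3 alone passed a fold change of at least 2, as 2.21% of all genes did in the higher direction and 0.372% in the lower one. The fitted change was above 0 for all 9 members, with a median of 0.21 on the log2 scale, against a median of -0.02 over all genes tested. Without WT replicate 7 the count was 6 of 9, with Stat4 added and 0 lower, against 7.64% of all genes higher and 3.57% lower, and the median was 0.34. With only the hearts that carry letter names, 3 KO and 2 WT, 0 of the 9 passed. Of all genes, 86 were higher and 14 lower in that fit, against 2160 and 1372 with all hearts. With only the number names, 2 KO and 4 WT, 5 members passed, and 2310 genes were higher and 1814 lower in all. What the names stand for is not given in the sources used here. In whole hearts more cells of a type and more RNA per cell cannot be told apart. Each p-value sets a difference between the genotypes against the variation among these hearts, whose litters are not known.

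**Figure D1:**
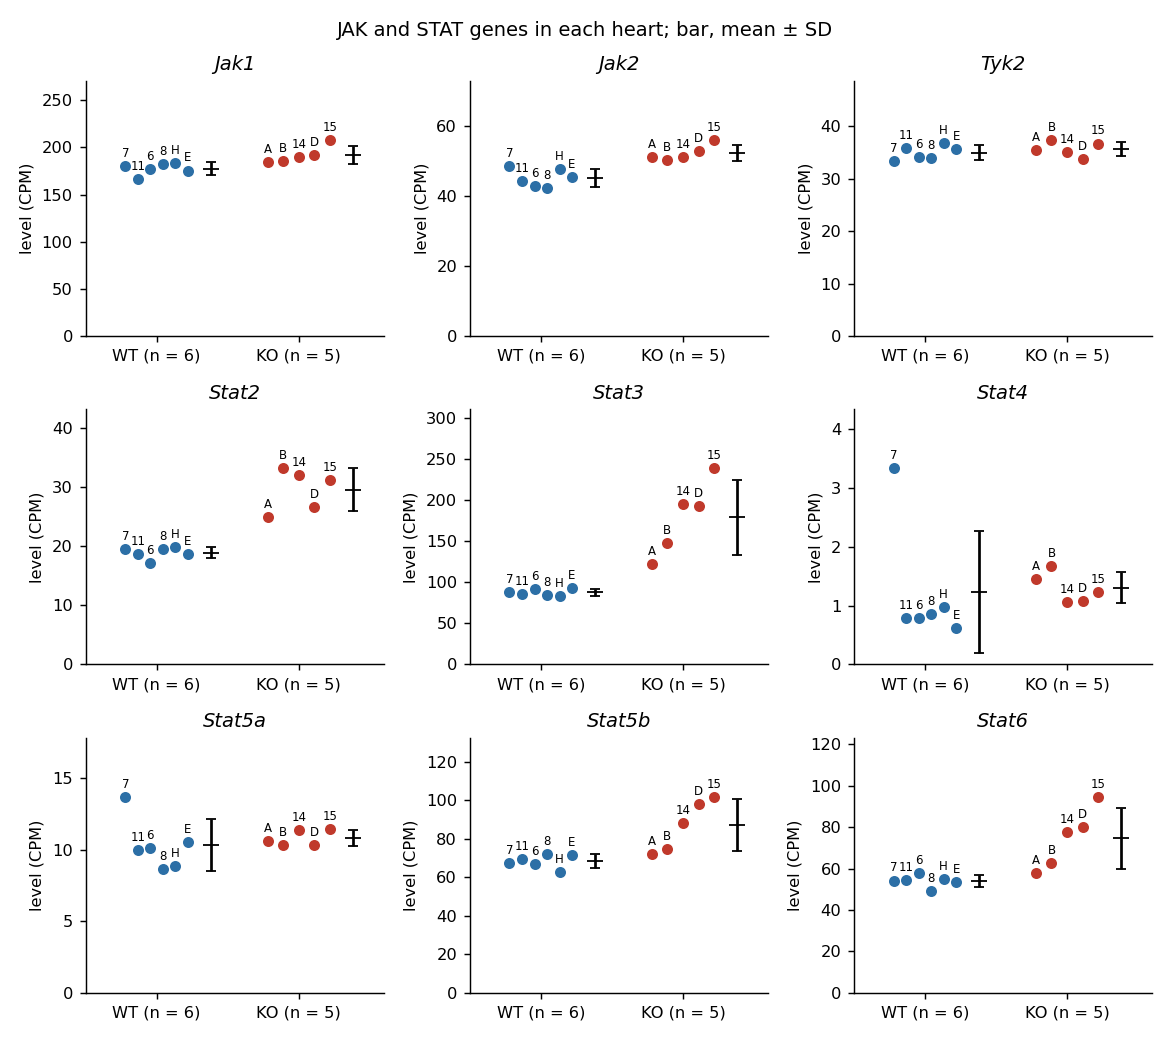
Level of each JAK and STAT gene in every heart, in CPM on a linear axis from 0, for 6 WT and 5 KO hearts, with the mean and SD as a bar and the replicate name over each point. Every KO heart lies above every WT heart for Jak1, Jak2, Stat2, Stat3 and Stat6, and WT replicate 7 holds the highest Stat4 value, at 3.34 CPM.

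Of the 3 kinases, 1 was called. Jak1, the kinase that type I and type II interferon receptors and gp130 receptors share (chr4:101152367-101265282, minus strand), had 185, 186, 189, 192 and 208 CPM in KO hearts A, B, 14, D and 15. In WT hearts the lowest, median and highest values were 166, 179 and 184 CPM. The groups did not overlap, as was so for 5.38% of all genes in this direction and 3.11% in the other, but the difference was small: log2 fold change 0.11 with an SE of 0.04 and an adjusted p of 0.107 by edgeR's quasi-likelihood test, so Jak1 was not called. With DESeq2 the adjusted p was 0.0405.

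Jak2, the kinase of the receptors for erythropoietin and growth hormone (chr19:29251828-29313080, plus strand), had 51.3, 50.3, 51.1, 53.0 and 56.1 CPM in the KO hearts in the same order. The WT hearts ran from 42.3 through a median of 44.9 to 48.6 CPM. All 5 KO hearts were above all 6 WT hearts, and Jak2 rose 1.16-fold (log2 fold change 0.21, SE 0.05, adjusted p 0.016 by edgeR). WT replicate 7 was the highest WT heart, and without it the change was 0.23.

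Tyk2, which serves the type I interferon and interleukin 12 receptors (chr9:21104068-21131243, minus strand), had 35.4, 37.4, 35.0, 33.8 and 36.7 CPM in KO hearts and 33.3 to 36.9 CPM in WT hearts, with a WT median of 34.9. The groups overlapped throughout. The log2 fold change was 0.03, its 95% interval ran from -0.07 to 0.13, and the edgeR adjusted p was 0.729.

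Jak1 was the only member whose promoter held a cAMP response element, the letters TGACGTCA, which are their own reverse complement. PDE2A breaks down cAMP and cGMP, and this element is the one bound by the cAMP-responsive factor CREB. The promoter windows here are those of RefSeq on GRCm38.p6, from 250 bases before to 50 bases after a gene's start, and every member had one, 12 windows in all for 9 genes. Of 32851 such windows over all genes, 1.79% held the element. The 250 bases before the Jak1 start, on the minus strand at chr4:101265224-101265473, are shown from 5′ to 3′ with the element in capitals, which begins 101 bases before the start.
Jak1: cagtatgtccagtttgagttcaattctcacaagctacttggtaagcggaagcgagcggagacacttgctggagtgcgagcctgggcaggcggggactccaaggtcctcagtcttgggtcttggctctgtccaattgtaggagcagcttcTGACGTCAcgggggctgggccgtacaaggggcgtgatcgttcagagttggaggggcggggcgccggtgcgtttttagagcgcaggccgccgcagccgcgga
The element stands in the one kinase promoter that held any of the 4 motifs searched. A match of letters does not show that a factor was bound, and the part of cAMP in the Jak1 level was not tested.

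Stat3 had the largest change of the 9. STAT3 carries signals of the interleukin 6 family from gp130 and drives acute-phase, survival and feedback genes. The gene (chr11:100885098-100939540, minus strand) had 122, 147, 195, 193 and 239 CPM in KO hearts A, B, 14, D and 15. In WT hearts the lowest, median and highest values were 83.8, 87.0 and 93.2 CPM. Every KO heart was above every WT heart, and the KO hearts were spread widely, KO replicate A lying closest to the WT range and KO replicate 15 farthest from it. The means were 179 ± 45.6 CPM in KO hearts (SD, n = 5) and 87.9 ± 4.17 CPM in WT hearts (SD, n = 6). Stat3 rose 2.04-fold (log2 fold change 1.03, SE 0.13, edgeR adjusted p 2.96e-04). With letter names only the change was 0.80 (edgeR adjusted p 0.154) and with number names only 1.31 (adjusted p 2.95e-04). Leaving out 1 heart at a time gave changes from 0.91 to 1.14, and the change came under a fold change of 2 without KO replicate 14 or KO replicate 15.

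Stat2 had the second largest change. STAT2 is found almost wholly in the type I and type III interferon pathways, where with IRF9 it forms the complex that binds the interferon-stimulated response element. The gene (chr10:128270559-128292849, plus strand) had 24.9, 33.2, 32.0, 26.6 and 31.1 CPM in the KO hearts. The WT values ran from 17.2 through a median of 19.0 to 19.9 CPM. No KO heart reached down to the WT range, and KO hearts A and D were the lowest of the 5. Stat2 rose 1.56-fold (log2 fold change 0.64, SE 0.08, edgeR adjusted p 1.64e-04).

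The Stat2 promoter held the response element of its own complex. The search, on both strands, was for the core of the interferon-stimulated response element (ISRE), which 3.44% of all windows held, for the STAT dimer site TTCNNNGAA (GAS, 8.3% of windows), and for the GAS site with a spacer of 4 bases (6.95%). A core match stood in 2 of the 12 member windows, that of Stat2 and the second window of Stat4, where GAAAGTGAAA began 97 bases before the start. Stat2 also held the site with the longer spacer, and no member window held the GAS letters with 3 bases between. The 250 bases before the starts of Stat2 (plus strand, chr10:128270248-128270497) and of Stat3 (minus strand, chr11:100939541-100939790) are shown because these genes changed most. In Stat2 the capitals mark the response element core on the opposite strand, 222 bases before the start, and then the site with the longer spacer, 210 bases before the start, which do not overlap. Stat3 had no match, so its letters are all in lower case.
Stat2: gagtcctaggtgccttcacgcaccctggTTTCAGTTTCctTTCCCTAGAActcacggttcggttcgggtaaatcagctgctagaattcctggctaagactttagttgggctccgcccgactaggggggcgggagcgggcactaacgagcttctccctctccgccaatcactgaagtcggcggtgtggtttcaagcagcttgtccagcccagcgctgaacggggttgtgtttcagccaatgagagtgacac
Stat3: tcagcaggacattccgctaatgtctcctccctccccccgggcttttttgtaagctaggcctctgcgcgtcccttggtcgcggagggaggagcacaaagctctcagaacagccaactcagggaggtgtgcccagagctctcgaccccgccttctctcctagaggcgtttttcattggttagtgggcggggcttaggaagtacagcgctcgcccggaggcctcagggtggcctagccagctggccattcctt
These matches are descriptions of letters in a window and do not show that a factor was bound there in these hearts.

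Stat6, the factor of the interleukin 4 and interleukin 13 receptors (chr10:127642986-127660957, plus strand), had 57.9, 62.9, 77.5, 80.3 and 94.7 CPM in KO hearts A, B, 14, D and 15. The WT lowest, median and highest values were 49.1, 54.4 and 57.7 CPM. The groups did not overlap, although KO replicate A lay next to the highest WT heart. Stat6 rose 1.38-fold (log2 fold change 0.46, SE 0.10, edgeR adjusted p 0.0124).

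Stat5b and Stat5a encode a near-identical pair of factors for growth hormone, prolactin and erythropoietin signals, and reads that fit both genes equally were counted to neither. Stat5b (chr11:100780731-100850724, minus strand) had 71.8, 74.8, 88.3, 98.1 and 102 CPM in KO hearts against 62.7, 68.7 and 72.2 CPM as the lowest, median and highest WT values. KO replicate A lay inside the WT range and the other 4 KO hearts lay above it. Stat5b rose 1.27-fold (log2 fold change 0.35, SE 0.09, edgeR adjusted p 0.0201), and this call was lost without KO replicate 14, D or 15, where the adjusted p was 0.0509, 0.0645 and 0.0552.

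Stat5a (chr11:100859351-100885169, plus strand) had 10.6, 10.3, 11.3, 10.4 and 11.5 CPM in KO hearts and 8.65, 10.1 and 13.7 CPM as the lowest, median and highest WT values. The highest was WT replicate 7, and the groups overlapped. The log2 fold change was 0.07 with an edgeR adjusted p of 0.728, and 0.17 with an adjusted p of 0.186 without that heart.

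Stat4, the factor of interleukin 12 signals in T and NK cells (chr1:51987148-52107189, plus strand), was the lowest member, with 538 counts over all hearts. KO hearts A, B, 14, D and 15 had 1.46, 1.68, 1.07, 1.08 and 1.24 CPM. WT replicate 7 had 3.34 CPM, and the other WT hearts 0.624 to 0.969 CPM. With all hearts the groups overlapped and the log2 fold change was 0.09 (SE 0.39, edgeR adjusted p 0.907), while without WT replicate 7 all 5 KO hearts were above all WT hearts, as was so for 6.31% of all genes, and the change was 0.69 (SE 0.18, edgeR adjusted p 0.0329). WT replicate 7 is the heart with the T-cell markers given above, and their part in its Stat4 level was not tested. Of the Stat4 exon bases, 26.7% lie in exons of Gm28177 on the same strand, and reads there were counted to neither gene.

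**Figure D2:**
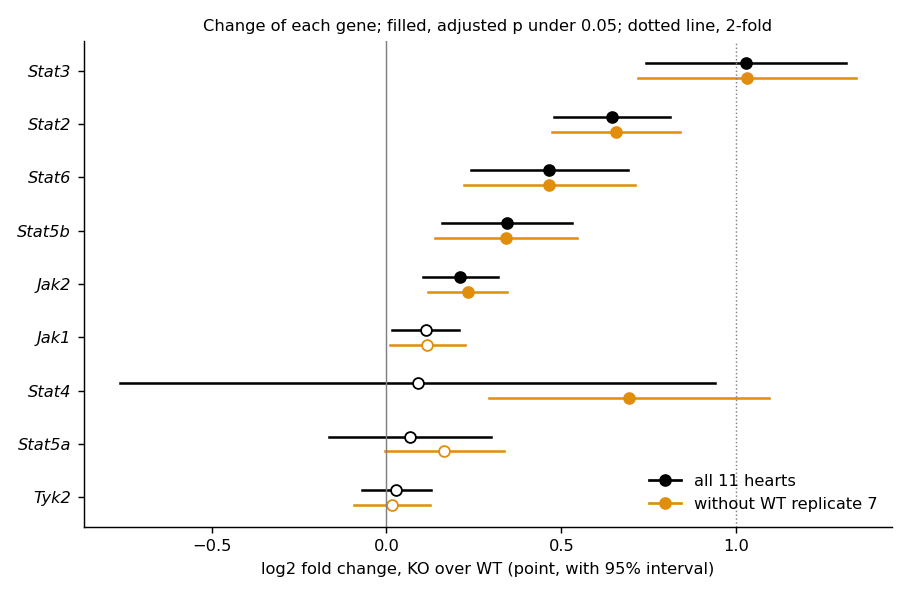
Log2 fold change of each member, KO over WT, with its 95% interval, for all 11 hearts in black and without WT replicate 7 in orange, filled where the adjusted p was under 0.05. Stat3 is farthest right at 1.03, and Stat4 is the member that moves most when the heart is left out, from 0.09 to 0.69.

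Compared per kilobase of exon, the order of the members differed between the genotypes. In WT hearts mean levels were 24.6 CPM per kilobase for Jak1, 12.4 for Stat5b, 12.3 for Stat6, 9.23 for Stat3, 8.99 for Jak2, 5.09 for Tyk2, 3.19 for Stat2, 1.44 for Stat5a and 0.318 for Stat4. Stat5b and Stat6 overlapped, each being higher in 3 of 6 hearts, and so did Stat3 and Jak2, Stat3 being higher in 4 of 6. The other neighbours did not overlap.

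In KO hearts Stat3 stood second with 18.8 CPM per kilobase, between Jak1 at 26.5 and Stat6 at 17.0, followed by Stat5b at 15.7 and Jak2 at 10.4. Stat3 exceeded Stat6 in 4 of 5 KO hearts and none of the WT hearts. Stat2, at 4.99 CPM per kilobase, reached the range of Tyk2 at 5.20, and the order of these genes varied from heart to heart. The same ranks held when reads of both strands were counted and when TMM scaling was left out. Both kept the same lengths, all annotated exons of a gene merged. No other length was tried, so how far the order depends on it was not tested.

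**Figure D3:**
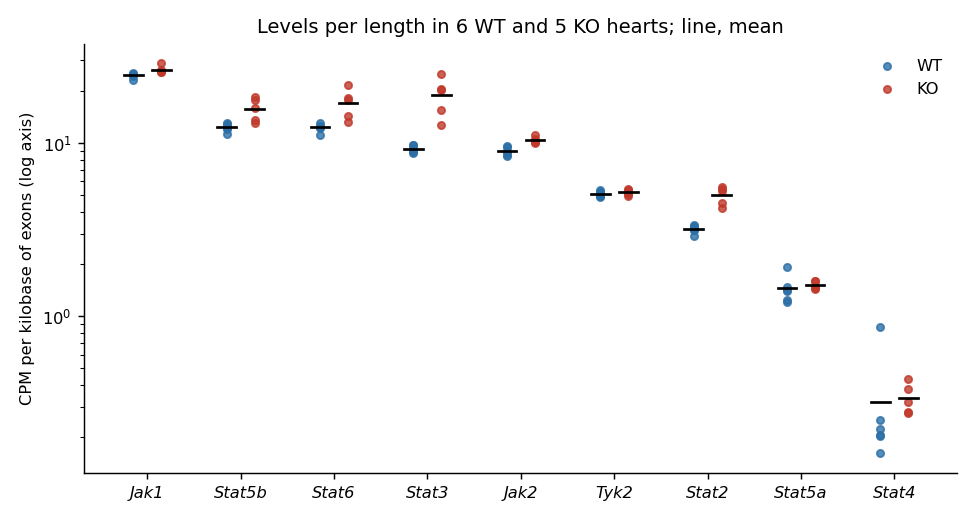
Levels of the 9 members per kilobase of exon in 6 WT and 5 KO hearts, on a log axis, with the mean as a line, in the WT order. Stat3 goes from a mean of 9.23 to 18.8 CPM per kilobase and passes Stat5b and Stat6.

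The make-up of the STAT pool was compared as ratios of genes within a heart, which do not depend on library scaling, over 7 pairs with p-values adjusted over them. Stat3 relative to Stat5b was higher by 0.66 on the log2 scale in KO hearts, and relative to Stat5a by 0.91, with all 5 KO hearts above all 6 WT hearts in both (two-sided exact permutation test over 462 splits, p = 0.00216, which is the smallest possible, adjusted p = 0.00758). Of the summed length-scaled level of the STAT members, Stat3 made up 28.4% to 34.7% in KO hearts and 23.2% to 24.7% in WT hearts. The Stat5b share was 25.5% to 28.8% in KO hearts and 30.2% to 34.5% in WT hearts. Jak2 relative to Jak1 was higher by 0.10 (exact permutation p = 0.013, adjusted p = 0.0303), a call that was lost without any 1 of the KO hearts (exact permutation, adjusted p from 0.0917 to 0.133). Stat5a relative to Stat5b differed by -0.25 (exact permutation, adjusted p = 0.185), Stat2 relative to Stat6 by 0.19 (0.193), Tyk2 relative to Jak1 by -0.08 (0.185) and Stat4 relative to Stat3 by -0.65 (0.193). The shares of Jak1 in the summed JAK level overlapped, at 62.4% to 63.6% in KO hearts and 62.0% to 65.3% in WT hearts.

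Stat3, Stat5a and Stat5b lie side by side on chromosome 11. Stat5a begins 8.63 kb from Stat5b, and its end overlaps the end of Stat3 by 72 bases on the opposite strand. Stat5a, between the other two, was the one of the 3 that was not called. Stat2 and Stat6 lie 610 kb apart on chromosome 10. Reads on the strand opposite a member made up at most 3.70% of its total in any heart, the highest share being that of Stat4.

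The protein-coding genes next to the members were compared as well. The mitochondrial kinase gene Ak4, beside Jak1, rose (log2 fold change 0.74, edgeR adjusted p 0.00807), as did Ghdc beside Stat5b (0.32, adjusted p 0.0217), and Cavin1, a caveola component beside Stat3, fell (-0.21, adjusted p 0.0333). Raver2, Rcl1, Insl6, Cdc37, Apof, Il23a, Lrp1 and Nab2 did not pass the test, with fitted changes from -2.07 for Apof, a gene near 0 CPM, to 0.24 for Nab2.

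The KO hearts did not vary alike for all members. Stat3, Stat5b and Stat6 were lowest in KO replicate A, next in KO replicate B and highest in KO replicate 15, whereas Stat2 was highest in KO replicate B and next to lowest in KO replicate D. Over the 11 hearts, the deviations of Stat3 from the genotype mean correlated with those of Stat6 at r = 0.96 and of Stat5b at r = 0.89, with Stat2 at 0.32 and with Tyk2 at -0.10. These values describe hearts that share their libraries across genes, and 96.2% of the squared deviation of Stat3 came from the 5 KO hearts.

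Among 11344 genes averaging 5 CPM or more, the genes most like Stat3 by this measure were Arfgap3, a GTPase-activating protein of the Golgi, at 0.99, Mapk8ip3, Mib2, Rab3gap2 and Trip10, each at 0.97. The genes most like Stat2 were Isg15, an interferon-induced ubiquitin-like protein, at 0.93, Lgals9, Ppp1ccb, Rplp0 and Trim30a, from 0.91 to 0.92. Isg15, Lgals9 and Trim30a rose in KO hearts (log2 fold change 4.52, 1.44 and 1.78), while Ppp1ccb and Rplp0 were at -0.00 and -0.04.

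Hypoxia-response genes moved with the first of these patterns. Of 10 such genes 9 rose, against 8.93% of all genes. Among them were Ndrg1 (log2 fold change 2.31, edgeR adjusted p 0.00618), the oxygen sensor Egln3 (1.98, 0.00316) and the vasodilator peptide gene Adm (1.59, 0.0134). Their summed level was 2912, 3829, 4705, 4737 and 5693 CPM in KO hearts A, B, 14, D and 15. In WT hearts it was 2583 to 3147 CPM, a range that KO replicate A lay inside. The order of the KO hearts was the same as for Stat5b and Stat6. Macrophage markers had this order too, summing to 231, 257, 263, 273 and 281 CPM in the same KO hearts. The sums of the other marker lists did not have it. Fibroblast markers summed to 7242, 7097, 9082, 11494 and 9885 CPM, and neutrophil markers to 22.5, 16.9, 16.9, 45.7 and 28.0 CPM. The part of hypoxia or of macrophages in the members' levels was not tested.

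**Figure D4:**
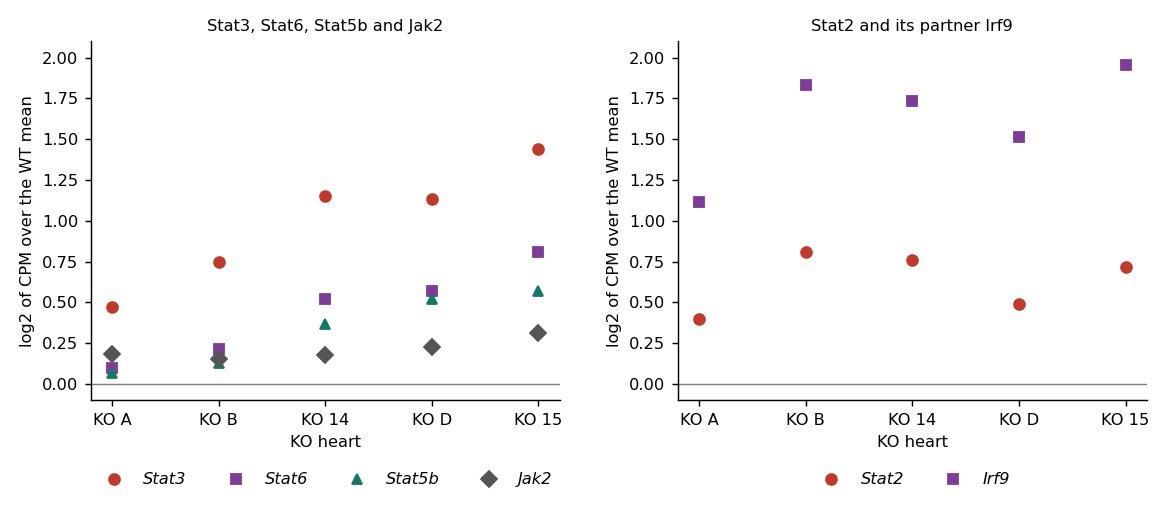
Level of selected genes in each KO heart as log2 of its CPM over the WT mean, Stat3, Stat6, Stat5b and Jak2 on the left and Stat2 with Irf9 on the right. On the left Stat3 goes from 122 CPM in KO replicate A to 239 CPM in KO replicate 15, and on the right Stat2 is lowest in KO replicate A, at 24.9 CPM, and highest in KO replicate B, at 33.2 CPM.

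The 10 interferon genes listed were at or near 0 counts in these hearts, and none reached 10 counts over all hearts. Reads that fit more than 1 place were left out, so for genes with near copies 0 counts cannot show absence. Ifng had 2 counts, Ifnl3 had 1, and the other 8, Ifnb1 among them, had 0. Of 8 ligands of the gp130 receptors 6 were tested and 1 rose, Il6, which had 0.287, 0.236, 0.423, 0.194 and 0.413 CPM in KO hearts A, B, 14, D and 15 and 0.0272 to 0.130 CPM in WT hearts. Its log2 fold change was 2.04 (SE 0.36, edgeR adjusted p 0.00334), on 77 counts in all, and the count for this list was 0 with DESeq2 and 0 with the stricter count filter of edgeR.

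The other gp130 ligands did not pass with all hearts. Lif had a log2 fold change of 0.26 (edgeR adjusted p 0.57) and Il11 one of -0.17 (adjusted p 0.878). Osm, encoding oncostatin M, had 0.287, 0.307, 0.323, 0.638 and 0.303 CPM in KO hearts, 0.574 CPM in WT replicate 7 and at most 0.0548 CPM in the other WT hearts. Its change was 1.69 with all hearts (adjusted p 0.178) and 3.96 without WT replicate 7 (adjusted p 7.32e-04), by edgeR. Of 19 other cytokine ligands 8 were tested and 0 passed by edgeR, while 1 was lower with DESeq2.

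The counts of receptors, inhibitors, partners, targets and markers from here on are read against all genes, of which 8.93% rose and 5.67% fell. Of 6 interferon receptor chains, 2 rose and 0 fell, with a median of 0.20. Ifnar2, which carries JAK1 and STAT2 on its tail, had a log2 fold change of 0.33 (edgeR adjusted p 0.0162) and Ifngr1, a chain of the interferon gamma receptor, 0.26 (adjusted p 0.0158). Ifnar1, the chain that carries TYK2, had 89.6, 83.2, 94.1, 94.6 and 101 CPM in KO hearts and 80.4 to 90.5 CPM in WT hearts, and did not pass (0.12, adjusted p 0.142).

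Of 7 receptors that use gp130 or its relatives, 4 rose, with a median of 0.36. Il6st, which encodes gp130 itself, had 268, 275, 268, 305 and 300 CPM in KO hearts against 212, 222 and 227 CPM as the lowest, median and highest WT values. The groups did not overlap, and Il6st rose (log2 fold change 0.36, SE 0.05, edgeR adjusted p 3.47e-04). The oncostatin M receptor Osmr (0.71, adjusted p 3.52e-04), Il27ra (0.79, adjusted p 9.50e-04) and the interleukin 6 receptor Il6ra (0.48, adjusted p 0.0228) rose too.

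Of 9 tested receptors of the common beta and homodimeric groups, which signal through JAK2, 3 rose with a median of 0.56. Epor, the erythropoietin receptor, had 8.14, 12.7, 12.6, 9.52 and 11.2 CPM in KO hearts and 1.89 to 2.69 CPM in WT hearts, with no overlap (log2 fold change 2.29, SE 0.14, edgeR adjusted p 2.25e-06). Csf2rb (1.90) and its near copy Csf2rb2 (1.44) rose also, with the caution that reads shared by these copies were counted to neither. Of 9 erythroid markers 3 rose and 1 fell, and their sum was 5704 to 8912 CPM in KO hearts and 4524 to 16191 CPM in WT hearts. The part of these cells in the receptor levels was not tested.

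Of 10 receptors of the common gamma and interleukin 4 group 1 rose, Il4ra, the chain that recruits STAT6, which had 16.2, 19.7, 26.3, 22.9 and 26.1 CPM in KO hearts and 9.86 to 13.95 CPM in WT hearts (log2 fold change 0.83, SE 0.13, edgeR adjusted p 0.00116). With all hearts 0 of this group fell, and without WT replicate 11 it was 2. Of 6 interleukin 10 and 12 receptors 1 rose, Il10ra (0.76, adjusted p 0.0172). Il10ra is a gene of macrophages, and 12 of 13 macrophage markers rose as well, with a sum of 231 to 281 CPM in KO hearts and 123 to 181 CPM in WT hearts. All 5 neutrophil markers rose, with a sum of 16.9 to 45.7 CPM against 0.523 to 6.55 CPM. The part of these cells in the levels of the members and receptors was not tested.

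**Figure D5:**
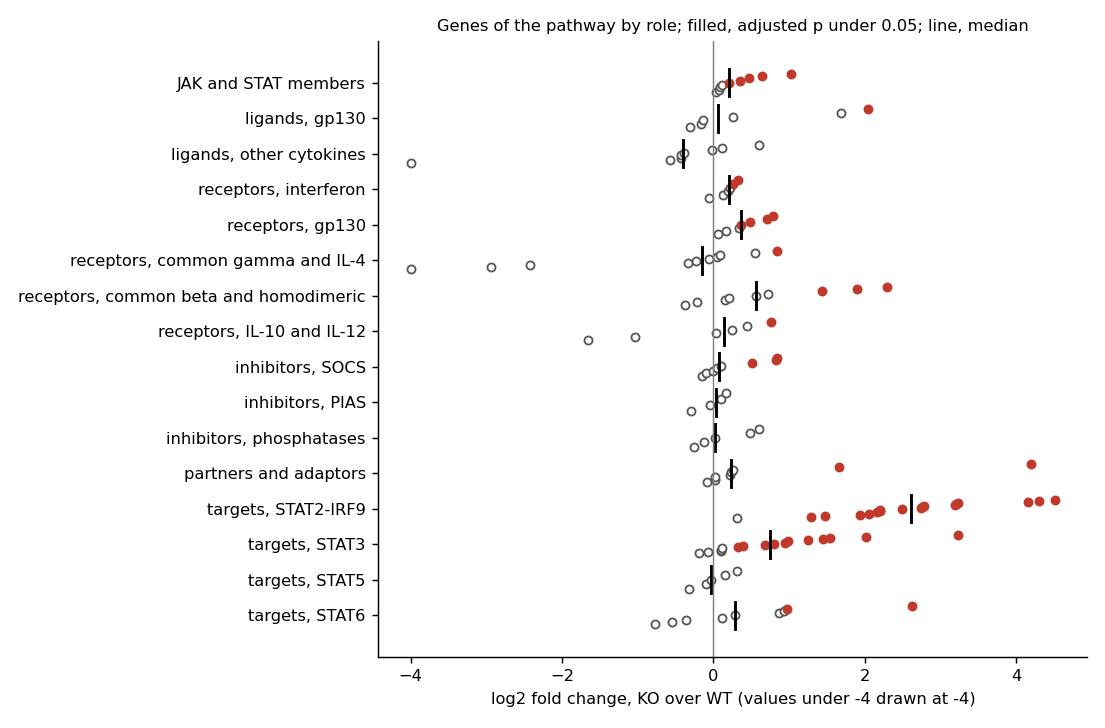
Log2 fold change, KO over WT, of every tested gene of the pathway lists, grouped by role, filled where the adjusted p was under 0.05, with the median of each list as a line and values under -4 drawn at -4. The STAT2-IRF9 targets lie farthest right, with a median of 2.61, and the PIAS and phosphatase lists lie around 0 with no filled point.

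Of 8 SOCS genes, inhibitors that block JAKs and receptors and are induced by STATs, 3 rose and 0 fell by edgeR with all hearts. With all hearts 1 SOCS gene was lower with DESeq2, and 1 when TMM scaling was left out. Without WT replicate 7 the same 3 passed and 1 was lower, Socs7 (-0.18, edgeR adjusted p 0.0341), which was at -0.15 with all hearts (adjusted p 0.0578) and was named after its values were seen. Socs3, the inhibitor of gp130 signals, had 10.6, 14.97, 14.1, 14.4 and 13.6 CPM in KO hearts and 5.12 to 8.53 CPM in WT hearts (log2 fold change 0.84, SE 0.13, edgeR adjusted p 0.0014). Cish, a target of STAT5, had 22.6, 28.4, 33.1, 42.7 and 45.3 CPM against 17.7 to 22.7 CPM, KO replicate A lying just inside the WT range (0.82, adjusted p 0.00415). Socs2, the inhibitor of growth hormone signals, rose by less (0.52, adjusted p 5.28e-04). None of 4 PIAS genes and none of 5 phosphatase genes passed in the main edgeR fit with all hearts. With DESeq2, 1 PIAS gene and 1 phosphatase gene were lower, and 1 PIAS gene was lower with reads of both strands. Without WT replicate 7 the leukocyte phosphatase genes Ptprc and Ptpn6 passed by edgeR, at 1.20 and 0.77 on the log2 scale. Both were named after their values were seen.

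Socs3 and Cish held GAS letters in their promoter windows, as 8.3% of all windows did, unlike every member. The windows of Irf9, Il4ra, Il6st, Osmr and Pim1 held no GAS letters, and Irf9 held the site with the longer spacer. Cish held 2 matches, at its start. The Socs3 window, on the minus strand at chr11:117969367-117969616 for the 250 bases before the start, is shown with its GAS match in capitals, 154 bases before the start.
Socs3: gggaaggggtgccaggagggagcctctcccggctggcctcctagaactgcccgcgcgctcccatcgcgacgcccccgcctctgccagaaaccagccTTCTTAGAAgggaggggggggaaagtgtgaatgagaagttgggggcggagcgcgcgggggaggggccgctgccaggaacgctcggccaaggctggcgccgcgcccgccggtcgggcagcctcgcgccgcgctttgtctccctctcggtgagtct

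Among 8 partners and adaptors 2 rose. Irf9, the DNA-binding partner of STAT2, had 24.7, 40.6, 37.9, 32.6 and 44.2 CPM in KO hearts and 9.86, 11.6 and 12.5 CPM as the lowest, median and highest WT values. KO replicate A was the lowest KO heart for Irf9, as for Stat2, and none overlapped the WT hearts. Irf9 rose 3.16-fold (log2 fold change 1.66, SE 0.12, edgeR adjusted p 5.66e-06). Usp18, which removes ISG15 from proteins and is recruited by STAT2 to IFNAR2 as a brake, rose more (4.20, adjusted p 9.65e-06), from 0.274 to 0.671 CPM in WT hearts to 2.98 to 13.0 CPM in KO hearts.

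Of 18 targets of the STAT2-IRF9 complex, 17 rose, each with a fold change of at least 2, and the median was 2.61. Isg15 (4.52, edgeR adjusted p 7.41e-06), Ifit1 (4.30, 4.59e-06), an interferon-induced RNA-binding protein, and Ifi44 (4.16, 1.17e-05) changed most, and Ifit2 did not pass (0.32, adjusted p 0.0512). Their summed level was 160, 330, 310, 254 and 367 CPM in KO hearts A, B, 14, D and 15 against 65.9 to 83.0 CPM in WT hearts. KO hearts A and D were the lowest here, as for Stat2. These genes were part of results known when the list was written, so the count is a description.

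Of 16 targets of STAT3, 11 rose, against 8.93% of all genes, with a median of 0.74. Leaving out 1 heart at a time gave counts from 8 to 10, and the count without WT replicate 7 was 9. With letter names only 0 rose. The iron-binding acute-phase protein gene Lcn2 (3.23, edgeR adjusted p 8.57e-04), also a neutrophil gene, the immediate early gene Fos (1.54, 0.00622) and the kinase gene Pim1 (0.99, 0.00112) had the largest changes among those called at a mean of at least 1 CPM. Pim1 had 52.2, 75.7, 82.1, 94.2 and 112 CPM in KO hearts and 35.5 to 49.8 CPM in WT hearts. None of 5 targets of STAT5, a list that does not hold Cish, given above, passed by edgeR, and 1 did with DESeq2. Of 9 tested targets of STAT6, 2 rose, Mrc1, the macrophage mannose receptor (0.97, adjusted p 5.58e-04), and Arg1 (2.62, adjusted p 0.0151), which had 0.130 CPM in KO replicate A, level with the lowest WT heart, while the other 4 KO hearts had 1.25 to 3.47 CPM. Arg1 was named after its values were seen.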

How the data were processed

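RNA was measured in 11 embryonic hearts, 5 KO and 6 WT, grouped by the genotype in the sample titles. Per the labels and the study's methods, stranded poly(A) libraries were read single-end on a NextSeq, and the authors mapped them to GRCm38 (mm10) with STAR. The deposited values are raw counts per gene, unnormalized, from STAR's gene counting, which leaves out reads on more than 1 place or gene. The sense-strand column was used. In it 19.6% to 22.4% of reads were assigned to no gene and left out, unmapped reads and reads on more than 1 place or gene included. Gene names and positions came from GENCODE M21, which matched 55227 of 55487 identifiers, and promoters from RefSeq.

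Genes reaching 10 counts in all were tested with edgeR 4.0.16 in R 4.3.3 (TMM, quasi-likelihood test, Benjamini-Hochberg adjustment over 24177 genes, threshold 0.05). The common biological coefficient of variation was 16.8%. On simulated counts the test recovered 184 of 200 genes given a log2 change of 1, with 10 wrong calls. The changed genes were drawn from well-counted genes only. Changes under 1, as for Stat2, Stat6, Stat5b and Jak2, were not simulated. Ratios used log2 of counts plus 0.5 and exact permutation tests. DESeq2 1.42.0, other scalings, filters and strand use, and leaving out each heart were alternatives. The labels do not say whether hearts shared a litter.

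The 9 members and the gene lists were chosen with earlier results of these data known, and the lists were written from general knowledge. Named genes are the members, their neighbours, fixed genes of the pathway, at most 3 called genes with the largest change and at least 1 CPM from each list, and the 5 genes most like each member with a fold change of at least 1.5. Exceptions are marked. Other genes of these families, 1 receptor of the lists and 1 neighbour of a member are not reported here. Summaries used pandas 2.3.3 and numpy 2.4.6 under Python 3.11.15, and figures matplotlib 3.10.9.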

Additional observations from a re-analysis of the deposited data

Results flagged for a closer look

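The Stat4 level of WT replicate 7 lay far from the other WT hearts. The gap to the next heart was 0.744 of the whole WT range on the log2 scale, above the limit of 0.625 that Dixon's test sets for 6 values. In all, 18 such tests were made, 1 for each member in each genotype, and chance flags about 1 in 20 groups. The value in this heart was 3.34 CPM, and the other WT hearts had 0.624 to 0.969 CPM. The same heart held T-cell and thymus transcripts, Cd3e and Rag1 among them, which were at or near 0 in the other hearts, and their part in the Stat4 value was not tested.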

How the results depend on the processing

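No paired analysis was possible because no replicate name occurs in both genotypes. Of 399 values that answer a comparison under an alternative, 358 kept their call and direction or, for counts and values without a test, stayed near the main value (counts within 1.5 times), and 41 did not. With DESeq2, Jak1 passed at an adjusted p of 0.0405 (log2 fold change 0.11) and 2354 genes were lower, against 1372. With only the hearts that carry letter names, 3 KO and 2 WT, no member passed: 0 were higher and 0 had a fold change of at least 2, and the changes were 0.14 for Jak2, 0.55 for Stat2, 0.80 for Stat3, 0.28 for Stat5b and 0.30 for Stat6, while Tyk2 turned to -0.033; 86 genes were higher and 14 lower in all. With only the number names, 2 KO and 4 WT, 5 members were higher, 2310 genes were higher and 1814 lower, and Stat4 was -0.33. The Stat3 to Stat5b ratio was 0.51 with letter names and 0.85 with number names. With letter names only, 4 STAT2-IRF9 targets rose, and 0 STAT3 targets, 0 STAT6 targets, 0 SOCS genes and 0 gp130 receptors. What the names stand for is not given in the sources used here. Leaving out each heart in turn, Stat4 ran from -0.048 to 0.69, below 0 without KO replicate B or WT replicate 11, 6 or E, and Stat5b from 0.29 to 0.41. The Jak2 to Jak1 ratio ran from 0.074 to 0.12 and missed the threshold without any 1 KO heart. The members with a fold change of at least 2 numbered 0 to 1, the genes higher 1288 to 2887 and the genes lower 414 to 2165. The cause of these shifts was not tested. At 26 to 128 counts per heart, Stat4 is limited by depth.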

Other observations

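The core of the interferon-stimulated response element was counted in the promoter windows of the gene lists as well. Of 13 STAT2-IRF9 targets with a RefSeq window, 8 held this core, and 57.1% of their 14 windows did, against 3.44% of all windows. Of 13 STAT3 targets with a window, 1 held it and 1 held the GAS letters. The GAS letters stood in 6.25% of their 16 windows, against 8.3% of all windows. Of 4 SOCS genes with a window, 2 held the GAS letters. Of 8 STAT6 targets with a window, 3 held the site with a spacer of 4 bases. These counts are given as descriptions with no test.

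Markers of cardiomyocytes and of the other cell types of the heart gave these counts. Of 13 cardiomyocyte markers 1 rose and 3 fell, with and without WT replicate 7, and the median log2 fold change was -0.18 with all hearts. Of 9 endothelial markers 3 rose and 1 fell, of 8 fibroblast markers 3 rose, and of 6 smooth muscle and 5 epicardial markers 1 fell in each, by edgeR's quasi-likelihood test. Without WT replicate 7, 2 endothelial markers rose and 0 smooth muscle and 0 epicardial markers fell.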
